A study of Mus musculus with 14 samples.

Results

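This account covers 38 genes of the cardiomyocyte contractile machinery and calcium cycling in the mouse aortic valve, taken as a named list from a table of 56941 genes. The genes were matched by symbol to the Ensembl identifiers of the table, and the list is one of names, with no measured value in its rule. All 38 were found, and all 38 averaged 10 or more counts per library, the minimum that left 19145 genes for testing. They comprise 8 genes of the thick filament, 6 of the thin filament, 11 of the Z-disc, titin and the M-band, 5 of calcium handling, 4 of energy transfer and of oxygen or fatty acid binding, and 4 of chaperones, the intermediate filament and a stretch-related protein.

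Male wild type C57BL/6J mice, 8 weeks old at the start, were all fed Breslow Western Diet, and the leaflets of their aortic valves were sequenced in bulk, 1 library per mouse. The 4 Ctrl mice were untreated, and the 4 AngII mice received angiotensin II at 1000 ng/kg/min from an osmotic pump for 28 days. The 2 LY mice received LY272015, which blocks the serotonin receptor HTR2B, at 3 mg/kg by intraperitoneal injection, and the 4 AngII+LY mice received both agents. The study compared the valves to ask what angiotensin II does to them and how HTR2B blockade alters that. The labels of 4 of the dosed mice give LY272016, LY272017 or LY272018 in place of LY272015, and their groups were taken from the sample titles. The sources differ on the dosing interval, and on whether all or some of the pumped mice had the pump removed 48 hours before collection. The design text of the series gives 4 mice in each group, and 2 LY mice were analysed here.

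Cardiomyocytes shorten when calcium released through the ryanodine receptor Ryr2 binds troponin on the thin filament, which lets the myosin heads of the thick filament pull actin toward the centre of the sarcomere. The pump Atp2a2 (SERCA2a) then returns calcium to the sarcoplasmic reticulum, held back by the small membrane proteins phospholamban and sarcolipin. Atrial and ventricular muscle of the mouse use different light chains and pump inhibitors: Myl4, Myl7 and Sln are characteristic of the atria, and Myl2 and Myl3 of the ventricles. The leaflets of the aortic valve consist of interstitial and endothelial cells and attach to a root that borders ventricular and atrial muscle.

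Contractile genes were abundant in every library. The 38 genes took from 1.59% of all counts in the second AngII mouse to 8.14% in the fourth AngII+LY mouse. The library totals ran from 20990655 to 73128220 counts, and the 95% Wilson interval of each share was at most 0.0145 percentage points wide, which covers counting error only. As for the labelled tissue, Dcn, Vim and Postn, genes of valve interstitial cells, had high counts in every mouse. Of the fast skeletal muscle genes, which share parts of the sarcomere, Tnnc2 was at 0 in all 14 libraries, and Myh1, Myh2 and Myh4 did not exceed a normalized count of 7.87. The 11 listed skeletal genes summed to 648 to 1816 in the Ctrl mice, 697 to 1461 in the LY mice, 586 to 1464 in the AngII mice and 998 to 9523 in the AngII+LY mice, the highest sum coming from Pvalb, at 7147 in the fourth AngII+LY mouse. In AngII+LY against AngII mice 2 of the 7 skeletal genes tested, Mylpf and Pvalb, were higher at an unadjusted p under 0.05 and 0 lower. Of all genes, 10.1% were higher and 12.4% lower there. Pvalb was at 8.27, 23.8, 137 and 82.7 in the AngII mice and 106, 87.6, 130 and 7147 in the AngII+LY mice.

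Normalized counts here are counts scaled by the effective library size of edgeR's TMM method. A few libraries stood apart. The second Ctrl mouse and the fourth AngII+LY mouse held the atrial members at levels far above those of the other mice of their groups, and the first Ctrl mouse held the highest smooth muscle counts, with Acta2 at 284730 against 5386 and 7455 in the third and the fourth Ctrl mice. In a bulk sample, fewer cells of a type and less RNA per cell cannot be told apart, so each value is a level in the dissected tissue. The main edgeR counts over all 38 members at an unadjusted p under 0.05 are also given without the second Ctrl and the fourth AngII+LY mice. LY against Ctrl is the exception. The choice to leave out these mice was made after their values were seen. Counts by role or marker list, DESeq2 calls and counts of non-overlapping genes include both mice.

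**Figure D1:**
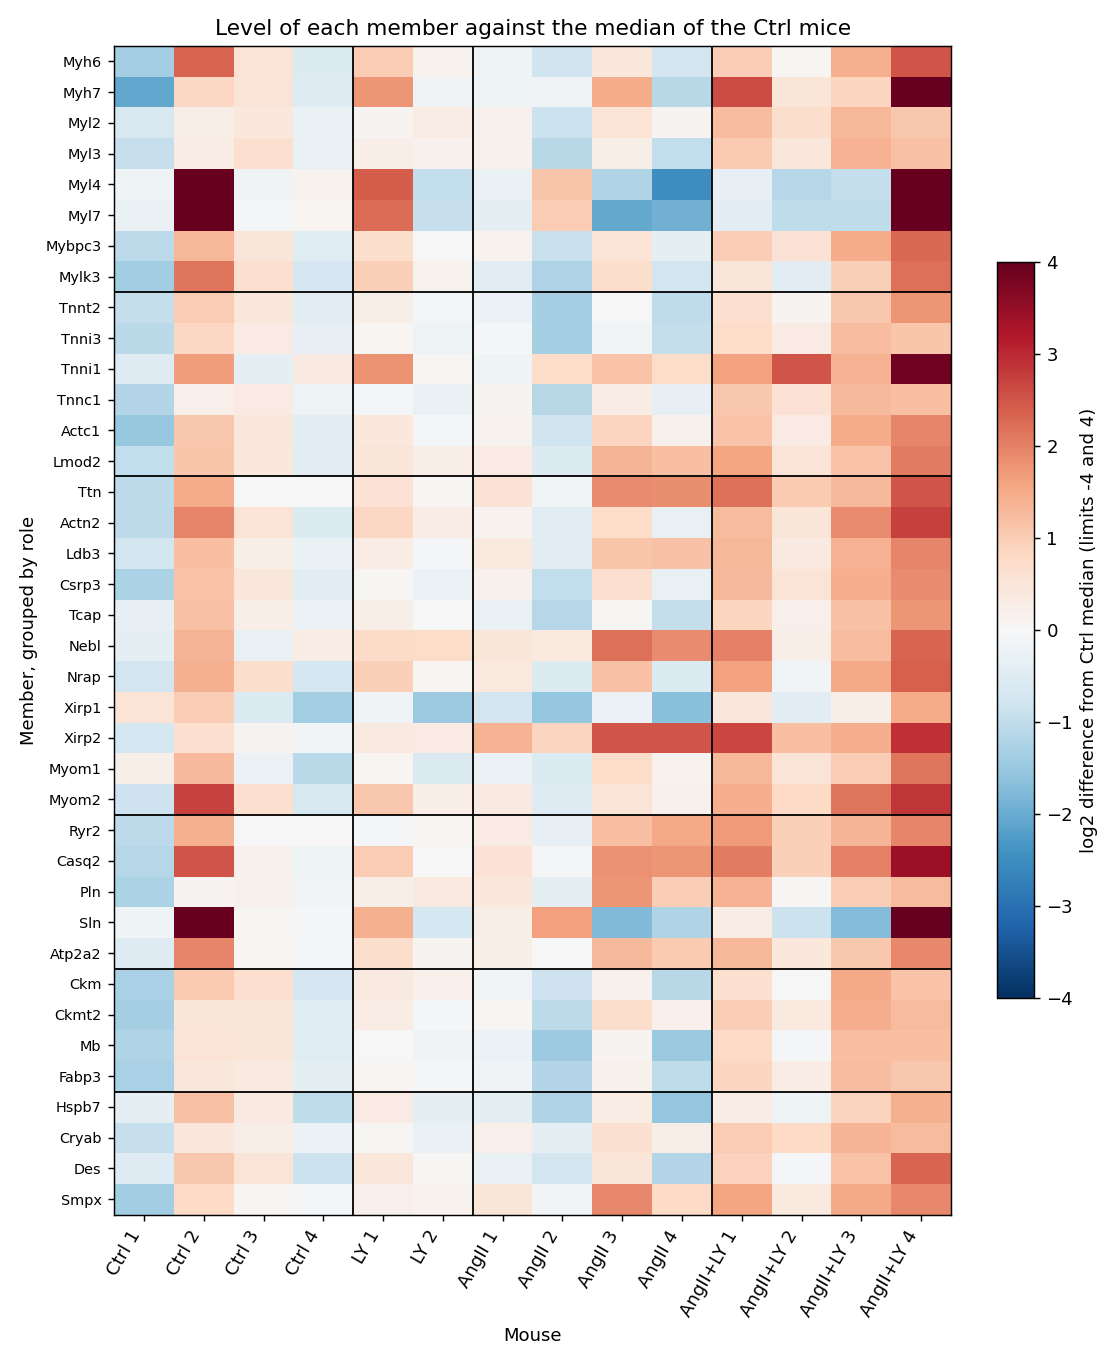
Heat map of the 38 genes (rows, grouped by role with black lines) in the 14 mice (columns), as the log2 difference of each normalized count from the median of the 4 Ctrl mice, red for higher and blue for lower, with colours limited to -4 and 4. The AngII+LY mice are mostly red, the first Ctrl mouse is mostly blue, and Myl4, Myl7 and Sln are darkest in the second Ctrl and the fourth AngII+LY mouse.

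The clearest pattern lay between AngII+LY and AngII mice, where every one of the 38 genes had a higher fitted level with LY272015. Their median log2 fold change was 1.32, beside -0.02 for all genes tested. In edgeR's quasi-likelihood test, 24 of the 38 were higher and 0 lower at an unadjusted p under 0.05, where 10.1% of all genes were higher and 12.4% lower. None passed a Benjamini-Hochberg adjusted p under 0.05 with an absolute log2 fold change above 0.5, and neither did any gene of the table (0%). DESeq2 called 18 of the 35 members to which it gave a p-value, all higher, with 5.41% of all genes called higher. In 11 members the lowest AngII+LY mouse lay above the highest AngII mouse, which held for 5.45% of all genes. Without the second Ctrl and the fourth AngII+LY mice, 32 of the 38 were still higher, 18 of them at an unadjusted p under 0.05, and the median was 0.91. Without the fourth AngII+LY mouse alone, 13 were higher at that p. The members share the same mice and most rose and fell together. Pearson's r with the mean of the other members ran from 0.513 for Myl7 to 0.982 for Actn2. Counts of members, here and below, are therefore not counts of independent results.

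With angiotensin II alone the members showed no common direction. Against Ctrl, 16 members had higher and 22 lower fitted levels in AngII mice, with a median log2 fold change of -0.22 beside -0.06 for all genes. Xirp2 and Pln were higher at an unadjusted p under 0.05 and no member was lower, against 13.4% and 11.7% of all genes. edgeR called none at the adjusted threshold (0% of all genes), while DESeq2 called both of these higher, with 9.29% of all genes called higher and 4.81% lower. Xirp2 was the 1 member whose AngII values all lay above its Ctrl values, which held for 7.46% of all genes, and no member lay wholly below, as 7.56% of all genes did. Without the 2 atrial-rich mice, 10 members were higher at an unadjusted p under 0.05 and 0 lower, with a median of 0.30. The direction that prevailed changed with the mouse left out. At that p there were 1 higher and 6 lower without the first Ctrl mouse, 8 higher and 0 lower without the second, 2 higher and 3 lower without the third and 2 higher and 4 lower without the fourth. There were 4 higher and 2 lower without the second AngII mouse, 1 higher and 3 lower without the third, 3 higher and 2 lower without the second AngII+LY mouse and 2 higher and 5 lower without the fourth. The log2 fold changes of the members in AngII against Ctrl varied with the GC content of their longest transcript, with a Spearman's rho of -0.604 over the 38 genes. In AngII+LY against AngII the rho was 0.577, and in AngII+LY against Ctrl -0.489. These points share the same libraries and are given as a description. With a GC correction, 1 member was higher at an unadjusted p under 0.05 in AngII against Ctrl, beside 1720 of 19145 genes. In AngII+LY against AngII 21 were higher, beside 1675 genes, with a median of 1.19. In AngII+LY against Ctrl 25 were higher, beside 1226 genes. No member was lower in these 3 fits at that p.

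Compared with Ctrl mice, AngII+LY mice had higher fitted levels of 36 of the 38 members, with a median log2 fold change of 1.08 beside -0.02 for all genes. In edgeR's test, 20 were higher and 0 lower at an unadjusted p under 0.05, where 4.89% of all genes were higher and 6.14% lower. None was called by edgeR after adjustment (0% of all genes). DESeq2 called 6 higher, Myl2, Myh7, Tnnc1, Tnni1, Xirp2 and Cryab, with 0.853% of all genes called higher. The values of Myl2, Tnnc1, Xirp2 and Cryab did not overlap between these groups, which held for 3.27% of all genes. Without the 2 atrial-rich mice 28 members were higher at an unadjusted p under 0.05, and without the fourth AngII+LY mouse alone 10 were higher and 3 lower. The count was 33 without the second Ctrl mouse, 10 without the first and 9 without the fourth. This comparison shares its Ctrl mice with that of AngII against Ctrl and its AngII+LY mice with that of AngII+LY against AngII.

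LY272015 without angiotensin II was tested in 2 mice. No member differed from Ctrl at an unadjusted p under 0.05 in edgeR's test or in DESeq2, where 1.39% of all genes did in edgeR, and none was called after adjustment by edgeR (0% of all genes) or DESeq2 (0.111% of all genes). The median log2 fold change of the 38 was -0.07 with 15 higher and 23 lower fitted levels. These signs rested on single mice, with 37 higher and 1 lower without the second Ctrl mouse (median 0.50) and 6 higher and 32 lower without the first (median -0.33). The test of whether the LY272015 effect differed with and without angiotensin II gave 8 members at an unadjusted p under 0.05, Tnnt2, Tnni3, Tnnc1, Csrp3, Tcap, Xirp1, Myom1 and Cryab, all with a larger effect in the presence of angiotensin II. At that p 13.3% of all genes differed, and edgeR called no gene after adjustment (0%). DESeq2 called 0 members, beside 1.08% of all genes. Without the 2 atrial-rich mice the count was 0, and leaving out 1 mouse gave from 0, without the second LY mouse, to 18, without the first Ctrl mouse.

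**Figure D2:**
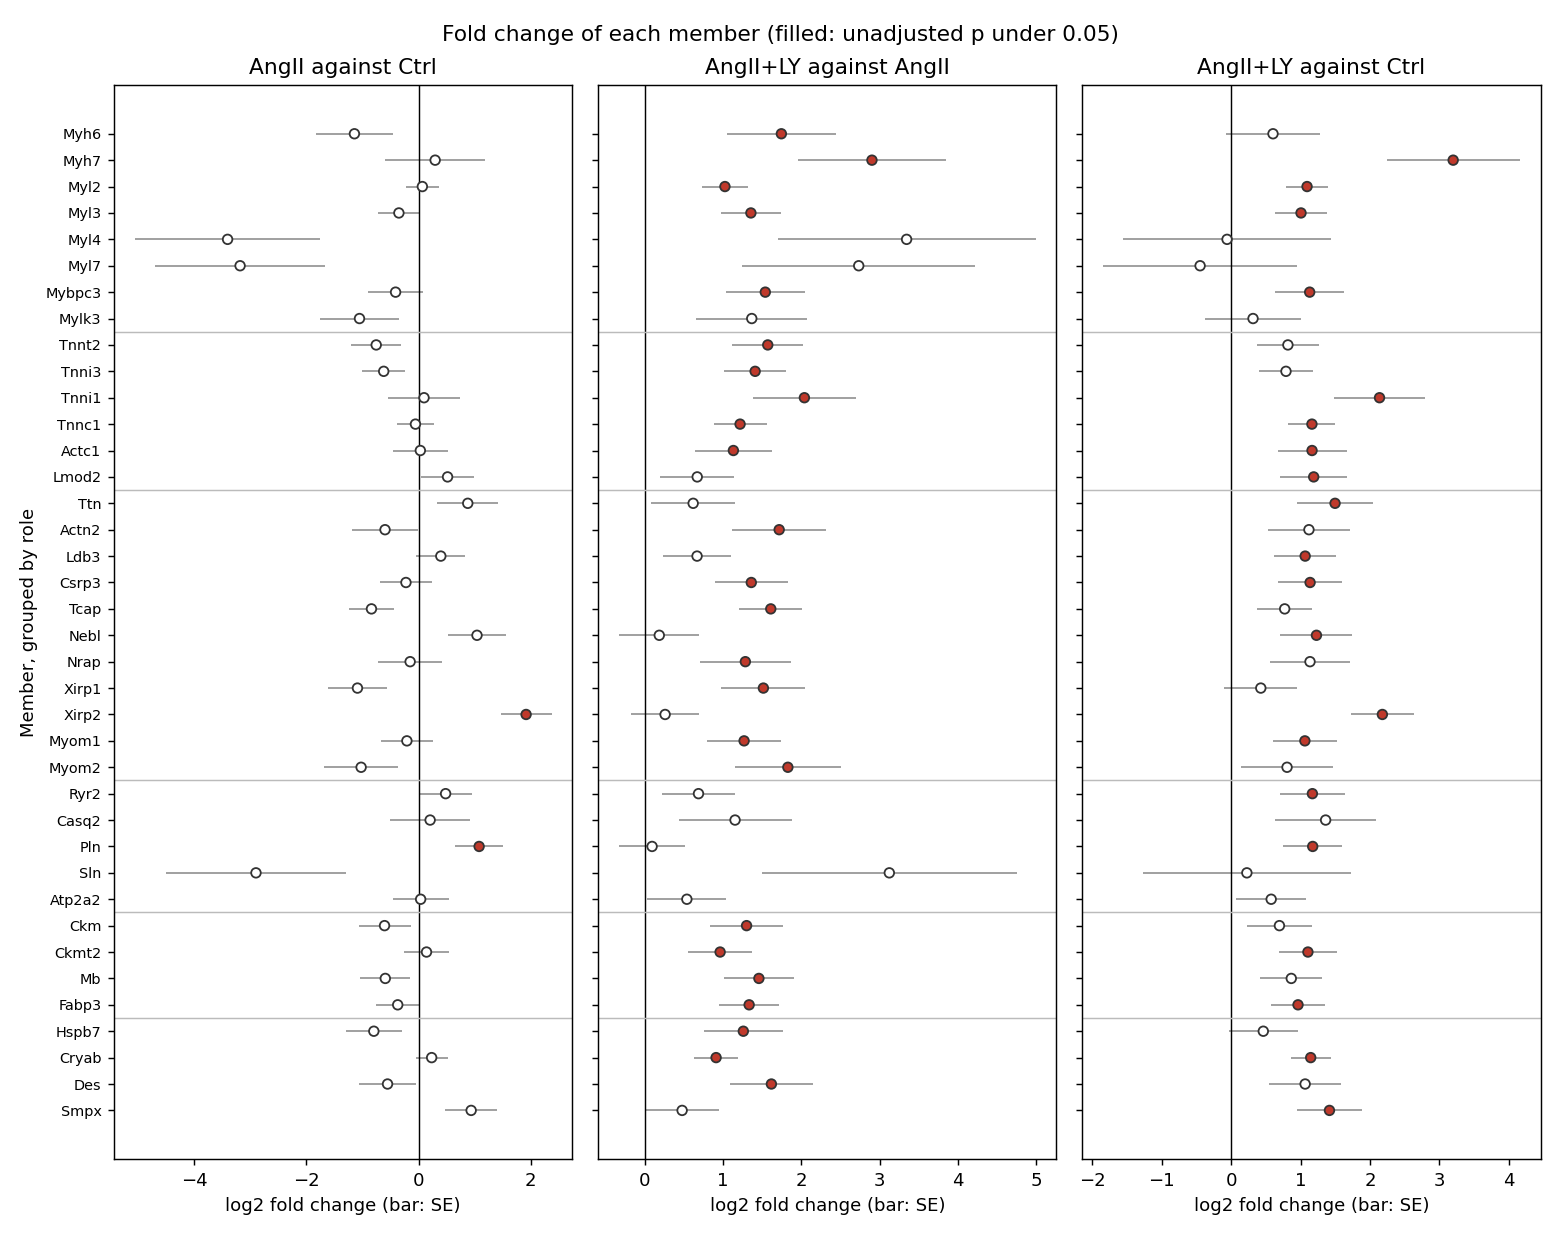
Log2 fold change of each of the 38 genes (points, with bars of 1 standard error) in 3 comparisons, grouped by role, with filled points for an unadjusted p under 0.05 in edgeR's test. In AngII+LY against AngII all 38 points lie above 0 and 24 are filled, in AngII against Ctrl only Xirp2 and Pln are filled, and Myl4, Myl7 and Sln have the widest bars.

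The atrial light chains divided the mice in another way than treatment. Myl7, the regulatory light chain of atrial myosin (MLC2a; ENSMUSG00000020469, chromosome 11, 5845449 to 5848792, minus strand of GRCm39), had normalized counts of 6355, 208649, 7244 and 8135 in the Ctrl mice, 35811 and 4034 in the LY mice, 5942, 15605, 1842 and 2032 in the AngII mice and 5628, 3802, 3761 and 155866 in the AngII+LY mice. Myl4 had normalized counts of 3043, 119455, 3110 and 3749 in the Ctrl mice, 18175 and 1730 in the LY mice, 2825, 7309, 1470 and 612 in the AngII mice and 2728, 1558, 1777 and 118166 in the AngII+LY mice. Myl4 is the essential light chain of atrial myosin (ENSMUSG00000061086, chromosome 11, 104440903 to 104486603, plus strand). In both genes the second Ctrl and the fourth AngII+LY mouse stood far above all other mice, the first LY mouse followed, then the second AngII mouse, and the groups overlapped throughout. Against the median of the other Ctrl mice, the second Ctrl mouse was 38.4-fold higher in Myl4 and 28.8-fold higher in Myl7. The fourth AngII+LY mouse was 66.5-fold and 41.0-fold above the median of the other AngII+LY mice. The fitted log2 fold changes were accordingly large and imprecise. In AngII against Ctrl, Myl4 gave -3.40 ± 1.65 (SE) with an unadjusted p of 0.0583 and Myl7 -3.18 ± 1.52 (SE) with 0.0545. Without the second Ctrl mouse these were -0.11 and -0.19. In AngII+LY against AngII, Myl4 gave 3.34 ± 1.65 (SE) with an unadjusted p of 0.0616 and Myl7 2.73 ± 1.49 (SE) with 0.0874. Without the 2 atrial-rich mice the latter pair became -0.60 and -0.53. DESeq2 gave no p-value for Myl4, Myl7 or Sln.

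The ventricular light chains did not share this division. Myl2, the regulatory light chain of ventricular myosin (MLC2v; ENSMUSG00000013936, chromosome 5, 122238848 to 122251545, plus strand), had normalized counts of 77928, 145165, 162861 and 101779 in the Ctrl mice, 132235 and 147986 in the LY mice, 138172, 67090, 176075 and 130041 in the AngII mice and 285047, 197160, 303352 and 255115 in the AngII+LY mice. Myl3 had normalized counts of 54361, 126180, 160582 and 82314 in the Ctrl mice, 122168 and 115957 in the LY mice, 114742, 46885, 119201 and 51452 in the AngII mice and 210134, 139733, 268903 and 231920 in the AngII+LY mice. Myl3 is the essential light chain of ventricular myosin (ENSMUSG00000059741, chromosome 9, 110570929 to 110599396, plus strand). All 4 AngII+LY mice exceeded all 4 AngII mice in both genes, and in Myl2 they also exceeded all Ctrl mice. Myl2 averaged 127844 ± 45198 (SD, n = 4) in the AngII mice and 260168 ± 46473 (SD, n = 4) in the AngII+LY mice, a log2 fold change of 1.03 ± 0.30 (SE) with an unadjusted p of 0.00397 and an adjusted p of 0.0816 in edgeR's test. For Myl3 the log2 fold change was 1.36 ± 0.38 (SE), with an unadjusted p of 0.00303 and an adjusted p of 0.0764. Against Ctrl, AngII mice differed by 0.07 in Myl2 and -0.35 in Myl3 on the log2 scale, with unadjusted p-values of 0.82 and 0.365, differences that moved with each mouse left out. In the second Ctrl mouse Myl2 was 1.43-fold the median of the other Ctrl mice, and in the fourth AngII+LY mouse 0.895-fold that of its group.

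**Figure D3:**
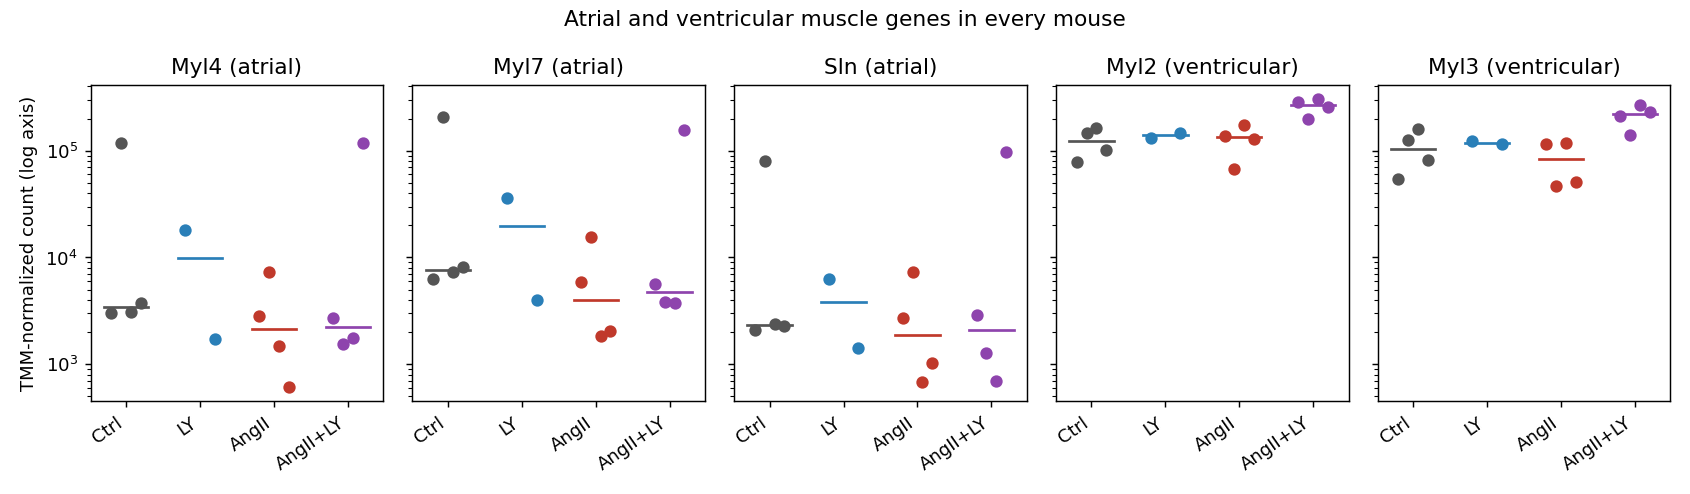
Normalized counts (log axis) of the atrial genes Myl4, Myl7 and Sln and the ventricular genes Myl2 and Myl3 in each mouse (points), with a line at the median of each group of 4 Ctrl, 2 LY, 4 AngII and 4 AngII+LY mice. In the atrial panels 1 Ctrl and 1 AngII+LY mouse lie far above the rest, and in the ventricular panels all 4 AngII+LY mice lie above all 4 AngII mice.

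Ratios of levels per kilobase of the canonical transcript place the chamber genes on 1 scale. Myl7 stood at 11.2, 198, 6.12 and 11.0 percent of Myl2 in the Ctrl mice, 37.2 and 3.75 percent in the LY mice, 5.92, 32.0, 1.44 and 2.15 percent in the AngII mice and 2.72, 2.65, 1.71 and 84.0 percent in the AngII+LY mice. The ventricular light chain thus exceeded the atrial one in every mouse but the second Ctrl mouse. Myl4 ranged from 0.660 percent of Myl3 in an AngII+LY mouse to 94.6 percent in the second Ctrl mouse, with group medians of 5.07 percent in Ctrl, 1.85 percent in AngII and 1.21 percent in AngII+LY mice. In the first 3 AngII+LY mice both ratios were below those of every Ctrl mouse. The same held for the second LY mouse and for the third and the fourth AngII mice. Their Myl4 stood at 1.49, 1.23 and 1.19 percent of Myl3, against at least 1.93 percent in Ctrl mice.

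**Figure D4:**
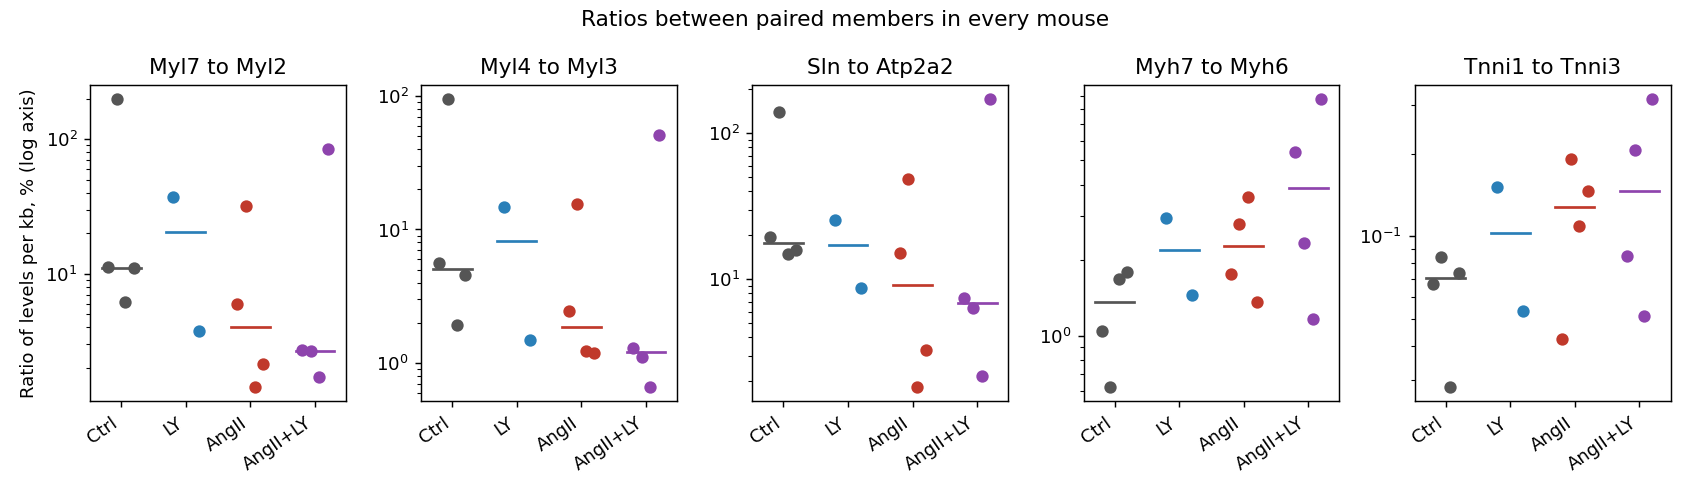
Ratio of levels per kilobase, in percent on log axes, for Myl7 to Myl2, Myl4 to Myl3, Sln to Atp2a2, Myh7 to Myh6 and Tnni1 to Tnni3 in each mouse (points), with lines at group medians. The second Ctrl and the fourth AngII+LY mice top the first 3 panels, at 198% and 84.0% for Myl7 to Myl2, and the fourth AngII+LY mouse also tops the last 2.

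Other genes of atrial muscle, a list of 6, separated partly along the same line. Nppa, the atrial natriuretic peptide, reached 21710 in the second Ctrl mouse and 141583 in the fourth AngII+LY mouse, against 1242 to 5853 elsewhere. The potassium channel subunit Kcnj5 was highest in the same mice, at 5148 and 4934. Bmp10, which is made in the right atrium, was at 0 in exactly these 2 mice and reached 297 in the first LY mouse. The 6 genes together summed to 3490 to 30960 in the Ctrl mice, 4438 to 8498 in the LY mice, 5023 to 9481 in the AngII mice and 4967 to 155794 in the AngII+LY mice. In AngII+LY against AngII, 2 of the 6 were higher at an unadjusted p under 0.05, Nppa and Gja5, and 0 lower, where 10.1% of all genes were higher. Gja5, a gap junction gene, was at 277, 108, 173 and 275 in the AngII mice and 564, 114, 11.5 and 5521 in the AngII+LY mice, so that its difference rested on the fourth AngII+LY mouse. Its log2 fold change was 2.91 ± 1.20 (SE) and 0.15 without that mouse, and that of Nppa 3.54 ± 1.27 (SE) and 0.32. The 2 listed ventricular transcription factors went apart, Irx4 being higher at a log2 fold change of 2.11 ± 0.64 (SE) and an unadjusted p of 0.0053, and Hey2 differing by -0.60 ± 0.46 (SE) with 0.218, or by -0.29 without the fourth and -1.15 without the second AngII+LY mouse. Hey2 was lowest of its group in the second Ctrl and the fourth AngII+LY mice, at 1984 and 1096, where Myh6 was highest. Which cells its counts came from was not tested.

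The upstream sequences of 1 ventricular and 1 atrial light chain are shown because both hold the same pair of muscle motifs while their levels diverge between mice. They are from RefSeq (GRCm38.p6) and cover bases -200 to -51 from the annotated start, 5′ to 3′ on the gene's strand, with MCAT motifs (CATTCC on either strand) and CArG boxes, which are bound by TEAD factors and by serum response factor, in capitals. Myl3 is at chr9:110763478-110763627 on the plus strand and Myl7 at chr11:5898833-5898982 on the minus strand, in a build whose coordinates differ from those of GRCm39.
Myl3: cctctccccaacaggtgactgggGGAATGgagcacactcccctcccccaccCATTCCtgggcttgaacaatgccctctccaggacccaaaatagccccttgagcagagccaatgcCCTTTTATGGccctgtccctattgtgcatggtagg
Myl7: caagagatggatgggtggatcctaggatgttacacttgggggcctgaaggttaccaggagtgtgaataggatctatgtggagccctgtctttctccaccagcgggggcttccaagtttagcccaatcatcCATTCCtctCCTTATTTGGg
Myl3 held MCAT motifs from -177 and from -149 and a CArG box from -85 to -76, and Myl7 an MCAT motif from -70 and a CArG box from -61 to -52. Of the 38 members, 32 were matched to a RefSeq promoter by symbol. Within 250 bases upstream of an annotated start, a CArG box was found in 6 of the 32 (18.8%), Actc1, Ldb3, Myl3, Myl7, Myom1 and Nebl, against 1.62% of all 27025 genes in the same table. The MCAT motif was found in 8 of the 32 against 14.4% of all genes. A GATA motif (AGATAA) was found in 7 against 11.4%, a MEF2 site in 3 against 0.592%, and a TATA box (TATAAA, which a MEF2 site can contain) in 2 against 14.3%. All were searched on both strands, and a match describes the sequence only.

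Of the 8 thick filament genes, Myl2, Myl3, Myh6, Myh7 and Mybpc3 were higher in AngII+LY than in AngII mice at an unadjusted p under 0.05. Myh6, the fast cardiac myosin heavy chain of the adult mouse heart, was the main heavy chain. Myh6 had normalized counts of 18010, 228022, 67103 and 31372 in the Ctrl mice, 92310 and 50245 in the LY mice, 40553, 26184, 62040 and 27341 in the AngII mice and 90871, 47924, 124048 and 260482 in the AngII+LY mice. The second Ctrl and the fourth AngII+LY mice were highest and the groups overlapped. AngII+LY mice differed from AngII mice by 1.75 ± 0.69 (SE) on the log2 scale, with an unadjusted p of 0.0243, and AngII mice from Ctrl by -1.14 ± 0.68 (SE), with 0.116. Without the second Ctrl mouse the latter value was 0.01. Myh7 had normalized counts of 184, 1397, 1113 and 555 in the Ctrl mice, 2664 and 717 in the LY mice, 704, 717, 2186 and 367 in the AngII mice and 4829, 1106, 1420 and 22421 in the AngII+LY mice. Myh7 is the slow heavy chain that dominates before birth and returns under load. The fourth AngII+LY mouse was highest by a wide margin, and the groups overlapped. Its log2 fold change was 2.90 ± 0.95 (SE) in AngII+LY against AngII, with an unadjusted p of 0.00831, and 1.30 without the fourth AngII+LY mouse. Per kilobase, Myh7 was 0.624 to 1.80 percent of Myh6 in Ctrl, 1.37 to 3.59 percent in AngII and 1.16 to 8.76 percent in AngII+LY mice. The 2 heavy chains are near-identical paralogs that also overlap the antisense RNA Mhrt, so their counts can share reads. Mybpc3, the cardiac myosin binding protein that anchors and restrains the heads, differed by 1.54 ± 0.50 (SE) between AngII+LY and AngII mice without overlap, with an unadjusted p of 0.00849. Mylk3, the kinase of the cardiac regulatory light chain, ranged from 1507 in the first Ctrl mouse to 18319 in the fourth AngII+LY mouse.

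Of the 6 thin filament genes, 5 were higher in AngII+LY than in AngII mice at an unadjusted p under 0.05, and the troponins Tnnt2, Tnni3, Tnni1 and Tnnc1 did not overlap between these groups. Tnni3 had normalized counts of 82343, 304334, 218629 and 137018 in the Ctrl mice, 182793 and 151547 in the LY mice, 165556, 68226, 159281 and 89885 in the AngII mice and 286355, 217335, 406065 and 373839 in the AngII+LY mice. Tnni3 is the inhibitory troponin of the adult heart. The lowest AngII+LY mouse was above the highest AngII mouse, and the Ctrl range reached into both. The log2 fold change was 1.41 ± 0.39 (SE) in AngII+LY against AngII, with an unadjusted p of 0.00285 and an adjusted p of 0.0758 in edgeR's test. It was -0.62 ± 0.39 (SE) in AngII against Ctrl, with an unadjusted p of 0.13, and -0.27 without the second Ctrl mouse. Tnni1 had normalized counts of 66.8, 308, 74.6 and 121 in the Ctrl mice, 334 and 98.0 in the LY mice, 84.8, 158, 210.3 and 159 in the AngII mice and 292, 543, 252 and 1424 in the AngII+LY mice. Tnni1, the slow skeletal isoform that the heart carries before birth, was far below Tnni3 in every mouse. Its ratio to Tnni3 per kilobase ran from 0.0283 to 0.0840 percent in Ctrl mice and up to 0.316 percent in the fourth AngII+LY mouse. Tnni1 gave 2.04 ± 0.66 (SE) in AngII+LY against AngII and 2.14 ± 0.66 (SE) against Ctrl, with unadjusted p-values of 0.00773 and 0.00575. Without the fourth AngII+LY mouse these were 1.25 and 1.34.

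Tnnt2, the tropomyosin-binding troponin, averaged 220792 ± 128087 (SD, n = 4) in the Ctrl mice, 130951 ± 55128 (SD, n = 4) in the AngII mice and 389151 ± 188975 (SD, n = 4) in the AngII+LY mice. The last 2 differed by 1.57 ± 0.45 (SE) on the log2 scale, with an unadjusted p of 0.00377. Tnnc1, the calcium sensor, averaged 82742 ± 32204 (SD, n = 4) in the Ctrl mice, 79661 ± 29934 (SD, n = 4) in the AngII mice and 185333 ± 37422 (SD, n = 4) in the AngII+LY mice, and all AngII+LY mice exceeded all AngII and all Ctrl mice. Its log2 fold change was 1.22 ± 0.34 (SE) against AngII and 1.16 ± 0.34 (SE) against Ctrl, with unadjusted p-values of 0.0029 and 0.00396. Actc1, cardiac actin, ranged from 68190 to 218851 in AngII and from 151386 to 467336 in AngII+LY mice. Lmod2, which elongates actin filaments, was the 1 thin filament member with an unadjusted p above 0.05 there, at 0.178. Tnnc1 shares its locus with Nisch on the opposite strand, and the strand setting of the counting is not given in the sources used here.

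Of the 11 genes of the Z-disc, titin and the M-band, 7 were higher in AngII+LY than in AngII mice at an unadjusted p under 0.05. Tcap, telethonin, which caps titin at the Z-disc, had the smallest p-value of all 38 in that comparison. Tcap had normalized counts of 72222, 202836, 107721 and 76578 in the Ctrl mice, 107809 and 90469 in the LY mice, 75456, 41090, 93799 and 46579 in the AngII mice and 165271, 104991, 205760 and 308147 in the AngII+LY mice. All AngII+LY mice lay above all AngII mice, by 1.61 ± 0.40 (SE) on the log2 scale, with an unadjusted p of 0.00124 and an adjusted p of 0.0612 in edgeR's test. In DESeq2 its adjusted p was 0.00159. Against Ctrl, AngII mice differed by -0.84 ± 0.39 (SE), with an unadjusted p of 0.0509, and by -0.41 without the second Ctrl mouse. Csrp3 had normalized counts of 14790, 78475, 48971 and 26206 in the Ctrl mice, 37033 and 30201 in the LY mice, 40790, 18149, 55983 and 29293 in the AngII mice and 87486, 52742, 97115 and 133158 in the AngII+LY mice. Csrp3, the muscle LIM protein, differed by 1.36 ± 0.47 (SE) between AngII+LY and AngII mice, with an unadjusted p of 0.0112, and here the highest AngII mouse was above the lowest AngII+LY mouse. Actn2, the crosslinker of actin at the Z-disc, differed by 1.72 ± 0.60 (SE), with 0.0124.

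Xirp2 had the smallest p-value of the list in AngII against Ctrl. Xirp2 had normalized counts of 1380, 3581, 2454 and 2071 in the Ctrl mice, 2878 and 2802 in the LY mice, 5950, 4134, 12936 and 12799 in the AngII mice and 14270, 5163, 6227 and 17256 in the AngII+LY mice. Xirp2 encodes an actin-binding repeat protein of the intercalated disc and Z-disc, known to respond to angiotensin II in the heart, and it was chosen after its values were seen. All 8 infused mice exceeded all 6 mice without angiotensin II. AngII mice averaged 8954 ± 4579 (SD, n = 4) and Ctrl mice 2371 ± 920.4 (SD, n = 4), a log2 fold change of 1.92 ± 0.45 (SE) with an unadjusted p of 0.000832 and an adjusted p of 0.0574 in edgeR's test. DESeq2 gave an adjusted p of 0.000771 and the newer quasi-likelihood method of edgeR 0.0466. AngII+LY mice differed from Ctrl by 2.18 ± 0.46 (SE), with an unadjusted p of 0.000297, and from AngII mice by 0.26 ± 0.44 (SE), with 0.56. With a correction for GC content the AngII effect was 1.46.

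Nebl and Ttn, the nebulette that lines thin filaments near the Z-disc and the titin spring, leaned the same way without passing the unadjusted threshold. In AngII against Ctrl, Nebl differed by 1.04 ± 0.52 (SE) with an unadjusted p of 0.063 and Ttn by 0.88 ± 0.54 (SE) with 0.127. Without the second Ctrl mouse the values were 1.56 and 1.55, and Nebl was 0.68 without the third AngII mouse and 0.42 with a GC correction. Ttn was at 14815, 9280, 37192 and 35954 in the AngII mice, the third and the fourth of which also had the highest mitochondrial shares, 24.7% and 25.5% of their counts against 4.00% to 7.52% in Ctrl mice. The part of library quality in these values was not tested. Xirp1, a relative of Xirp2, leaned the other way, at -1.09 ± 0.53 (SE) with an unadjusted p of 0.0597 and -0.67 without the second Ctrl mouse. Of the M-band genes, Myom2 did not overlap between AngII and AngII+LY mice, with ranges of 1233 to 2560 and 3108 to 12893, and Myom1 overlaps the much more abundant Myl12a on the opposite strand. Ldb3 and Nrap, which build the Z-disc and the myofibril ends, had log2 fold changes of 0.67 and 1.29 in AngII+LY against AngII, and Ldb3 0.40 without the fourth AngII+LY mouse and 0.43 without the second AngII mouse.

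Calcium handling was the 1 role with no member under an unadjusted p of 0.05 in AngII+LY against AngII. Atp2a2 had normalized counts of 35604, 195545, 53970 and 48168 in the Ctrl mice, 82362 and 55533 in the LY mice, 60486, 50780, 125633 and 105268 in the AngII mice and 129206, 68033, 107668 and 192276 in the AngII+LY mice. Atp2a2 showed overlapping groups, with a log2 fold change of 0.54 ± 0.50 (SE) in AngII+LY against AngII and an unadjusted p of 0.301, and 0.25 without the fourth AngII+LY mouse and 0.36 without the second AngII mouse. Pln had normalized counts of 6285, 16405, 17331 and 14217 in the Ctrl mice, 17864 and 19615 in the LY mice, 20442, 11846, 52195 and 30144 in the AngII mice and 40066, 15830, 29936 and 36614 in the AngII+LY mice. Pln, phospholamban, inhibits this pump. It was higher in AngII than in Ctrl mice by 1.08 ± 0.43 (SE), with an unadjusted p of 0.024, although the second AngII mouse lay below 3 of the Ctrl mice. It was 0.46 with a correction for GC content. Without the third AngII mouse the value was 0.62. AngII+LY mice differed from AngII mice by 0.10 ± 0.42 (SE), with 0.825. Ryr2 had normalized counts of 1253, 6908, 2588 and 2566 in the Ctrl mice, 2438 and 2699 in the LY mice, 3241, 2049, 5959 and 7375 in the AngII mice and 8403, 4988, 6673 and 9901 in the AngII+LY mice. The groups overlapped in Ryr2, and AngII+LY differed from AngII mice by 0.69 ± 0.47 (SE), with an unadjusted p of 0.162, and by 0.44 without the second AngII mouse. Casq2, which buffers calcium in the sarcoplasmic reticulum, differed by 1.15 ± 0.72 (SE), with 0.132, and by 0.54 without the fourth AngII+LY mouse.

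Sarcolipin followed the atrial light chains. Sln had normalized counts of 2074, 80744, 2383 and 2278 in the Ctrl mice, 6227 and 1431 in the LY mice, 2717, 7309, 683 and 1022 in the AngII mice and 2864, 1284, 699.7 and 97524 in the AngII+LY mice. The second Ctrl mouse was 35.4-fold and the fourth AngII+LY mouse 75.9-fold above the median of the other mice of its group. In AngII against Ctrl the log2 fold change was -2.90 ± 1.61 (SE) with an unadjusted p of 0.0938, and 0.39 without the second Ctrl mouse. In AngII+LY against AngII it was 3.12 ± 1.63 (SE) with 0.0755, and -0.86 without the fourth AngII+LY mouse. Per kilobase, Sln stood at 19.6, 139, 14.9 and 15.9 percent of Atp2a2 in the Ctrl mice, 25.5 and 8.68 percent in the LY mice, 15.1, 48.5, 1.83 and 3.27 percent in the AngII mice and 7.46, 6.36, 2.19 and 171 percent in the AngII+LY mice. Sarcolipin thus exceeded the pump only in the second Ctrl and the fourth AngII+LY mouse.

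All 4 energy and binding genes were higher in AngII+LY than in AngII mice at an unadjusted p under 0.05. Fabp3 had normalized counts of 36729, 122494, 115618 and 69771 in the Ctrl mice, 95117 and 84913 in the LY mice, 81977, 39502, 100526 and 44517 in the AngII mice and 161665, 109258, 212098 and 188826 in the AngII+LY mice. Fabp3 carries fatty acids in heart muscle. The AngII and AngII+LY values did not overlap, and the log2 fold change was 1.33 ± 0.39 (SE), with an unadjusted p of 0.0039. Mb had normalized counts of 50137, 165986, 159337 and 82736 in the Ctrl mice, 113453 and 104528 in the LY mice, 97021, 41530, 124707 and 40712 in the AngII mice and 198426, 108431, 262477 and 265986 in the AngII+LY mice. Mb, myoglobin, stores oxygen. Its log2 fold change was 1.46 ± 0.45 (SE), with an unadjusted p of 0.00584, and the third AngII mouse lay above the second AngII+LY mouse. The creatine kinases Ckm and Ckmt2, of the cytosol and the mitochondria, gave 1.30 and 0.96, with unadjusted p-values of 0.015 and 0.0343. None of the 4 had an unadjusted p under 0.05 in AngII against Ctrl.

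Among the chaperones and filament genes, Cryab had normalized counts of 25749, 66366, 56975 and 41432 in the Ctrl mice, 50235 and 40730 in the LY mice, 56198, 37525, 73537 and 56810 in the AngII mice and 97872, 83515, 123705 and 116555 in the AngII+LY mice. Cryab, the small heat shock protein alpha B-crystallin, was higher in every AngII+LY mouse than in every AngII and every Ctrl mouse. The log2 fold change was 0.91 ± 0.28 (SE) against AngII and 1.15 ± 0.29 (SE) against Ctrl, with unadjusted p-values of 0.00631 and 0.00128 and an adjusted p of 0.218 for the latter in edgeR's test. Des had normalized counts of 17981, 54763, 36979 and 14098 in the Ctrl mice, 34957 and 26450 in the LY mice, 21387, 15563, 35934 and 11568 in the AngII mice and 48955, 24358, 56821 and 129073 in the AngII+LY mice. Des, desmin, the intermediate filament that links myofibrils, differed by 1.62 ± 0.53 (SE) between AngII+LY and AngII mice, with an unadjusted p of 0.00818, and by 1.04 without the fourth AngII+LY mouse, and its groups overlapped. Hspb7, another small heat shock protein of the heart, gave 1.26 with 0.0256. Smpx, a stretch-responsive muscle protein, gave 0.48 with 0.32 there, with values of 0.25 without the second and 1.01 without the third AngII mouse, and of 0.74 without the second and 0.29 without the fourth AngII+LY mouse. It gave 1.42 ± 0.47 (SE) against Ctrl, with 0.00958. In this role 3 of 4 genes were higher in AngII+LY than in AngII mice at an unadjusted p under 0.05. Cryab overlaps Hspb2 on the opposite strand.

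Per kilobase of canonical transcript, the order of levels differed between groups. In Ctrl mice Tnni3 averaged 3676 CPM per kb, Myl2 2672, Tnnt2 2256, Tcap 2198, Tnnc1 2082 and Myl3 2039. In AngII mice Myl2 averaged 2802 and Tnni3 2392 CPM per kb, and in AngII+LY mice 5702 and 6357. Each gap between neighbours in these orders was smaller than the larger of their SDs. At the low end in Ctrl mice were Ttn at 2.23, Tnni1 at 2.34, Myh7 at 2.40 and Ryr2 at 3.58 CPM per kb. On the log2 scale over the 14 mice, Myl2 varied least after normalization among the light chains, with an SD of 0.641 against 2.10 for Myl7. Actn2 tracked the mean log2 level of the other members most closely, at a Pearson's r of 0.982, and Myl7, Sln and Myl4 least, at 0.513, 0.515 and 0.557. Their Spearman's rho of 0.130, 0.222 and 0.196 over the 14 libraries was lower still. Outside the list, the 10 genes whose log2 level correlated best with the mean of the 38 were Slc25a5, Alpk3, Tpm1, Cisd1, Vdac1, Hhatl, Mdh1, Dhrs7c, Kcnk3 and Perm1, with Pearson's r from 0.975 to 0.954. Slc25a5, Cisd1 and Vdac1 encode mitochondrial proteins. These correlations describe 14 shared libraries.

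A list of 30 other cardiomyocyte genes went with the members. In AngII+LY against AngII, 27 had higher fitted levels, 16 were higher and 1 lower at an unadjusted p under 0.05, and the median log2 fold change was 1.09. The lower one was Tbx20, a transcription factor also found in valve cells. The most abundant of the 30, Tpm1 and Cox6a2, differed by 1.27 ± 0.41 (SE) and 1.34 ± 0.40 (SE). Of all genes, 10.1% were higher there. Against Ctrl, 14 were higher in AngII+LY mice at that p and 1 lower, where 4.89% of all genes were higher. In AngII against Ctrl, 4 were higher, Acta1, Cacna2d1, Slc8a1 and Trdn, and 1 lower, Jph2, at that p, shares close to or below the 13.4% and 11.7% of all genes. Acta1, skeletal actin, which the stressed heart re-expresses, was at 5060, 9622, 34615 and 8668 in the Ctrl mice and 29742, 24166, 92104 and 27794 in the AngII mice, a log2 fold change of 1.58 ± 0.65 (SE) with an unadjusted p of 0.0288. It was 0.91 without the third AngII mouse and 2.48 without the third Ctrl mouse. The gene reached 123842, 30487, 94525 and 159632 in the AngII+LY mice.

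Genes of valve interstitial cells were lower in AngII+LY mice, where the members were higher. The 9 listed genes summed to 491747 to 926545 in the Ctrl mice, 600664 to 983129 in the LY mice, 804989 to 907980 in the AngII mice and 302664 to 533107 in the AngII+LY mice, so that AngII+LY and AngII mice did not overlap. All 9 had lower fitted levels in AngII+LY than in AngII mice, 6 of them at an unadjusted p under 0.05, with a median log2 fold change of -0.95. Of all genes, 12.4% were lower there at that p, and their median was -0.02. Dcn, the collagen-binding proteoglycan decorin, was at 362317, 350609, 324773 and 393795 in the AngII mice and 220313, 167539, 217916 and 114781 in the AngII+LY mice, a log2 fold change of -0.99 ± 0.29 (SE) with an unadjusted p of 0.00445. Vim, the most abundant after Dcn, differed by -0.56 ± 0.27 (SE), with an unadjusted p of 0.0532, and by -0.36 without the fourth AngII+LY mouse. Over the same groups the 38 members summed to 790251 to 2042980 and to 1899820 to 4915190, and in Ctrl mice to 785564 to 3284500. The part of the balance between muscle and interstitial tissue in the members' differences was not tested.

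**Figure D5:**
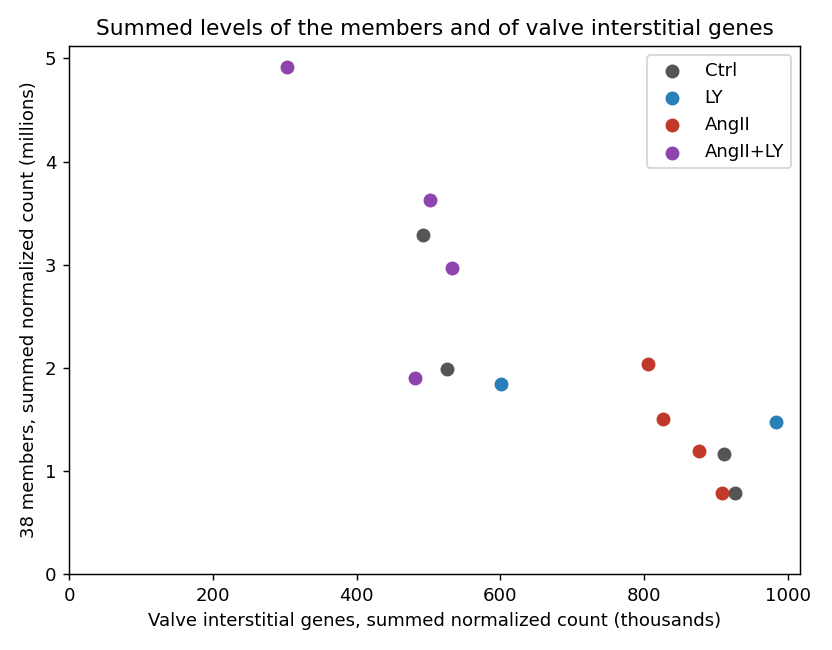
Summed normalized count of the 38 genes (vertical axis) against that of 9 valve interstitial genes (horizontal axis) in each of the 14 mice, coloured by group. All 4 AngII+LY mice lie to the left of all 4 AngII mice, and the fourth AngII+LY mouse is highest, at 4915190.

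Markers of the remaining cell types are given for the whole of each list. The 6 smooth muscle genes summed to 11640 to 444196 in the Ctrl mice and 9853 to 12457 in the LY mice. Their sums were 11538 to 21952 in the AngII mice and 12834 to 90898 in the AngII+LY mice. All 6 were lower in AngII than in Ctrl mice at an unadjusted p under 0.05, where 11.7% of all genes were lower. The lower sums rested on the first and the second Ctrl mice, at 444196 and 69415. The third and the fourth Ctrl mice, at 11640 and 11952.5, lay within the AngII range. Of the 6 genes 1, Smtn, was higher in AngII+LY than in AngII mice at that p, where 10.1% of all genes were higher. In the second Ctrl mouse, whose atrial genes were high, Acta2 was at 39775, in the fourth AngII+LY mouse at 47768 and in the second AngII+LY mouse, whose atrial genes were low, at 52820. The 6 endothelial genes summed to 62264 to 127105 in the Ctrl mice, 98748 to 131806 in the AngII mice and 58759 to 151048 in the AngII+LY mice. Of these 1, Emcn, was lower in the AngII+LY mice than in the AngII mice at that p, where 12.4% of all genes were lower. The 6 adipocyte genes summed to 5952 to 12645 in the Ctrl mice, 4737 to 11559 in the LY mice, 1204 to 4205 in the AngII mice and 1349 to 4345 in the AngII+LY mice. At that p, 5 of the 6 were lower in AngII than in Ctrl mice, beside 11.7% of all genes. Cidea was higher in AngII+LY than in AngII mice at that p, beside 10.1% of all genes. The 5 immune genes summed to 14326 to 52231 in the Ctrl mice, 23889 to 42110 in the LY mice, 13373 to 39696 in the AngII mice and 16423 to 69999 in the AngII+LY mice. All 5 had lower fitted levels in AngII than in Ctrl mice, 2 of them at that p, where 11.7% of all genes were lower. Cd79a was higher in AngII+LY than in AngII mice at that p, where 10.1% of all genes were higher. The part of any of these cell types in the members' levels was not tested.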

How the data were processed

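Valve leaflets of 14 mice (4 Ctrl, 2 LY, 4 AngII, 4 AngII+LY) were sequenced in bulk, and groups were taken from the sample titles. Per the study's methods, the authors checked reads with FastQC, trimmed and aligned them (HISAT2, GRCm39) and obtained gene counts with featureCounts. The counts the authors deposited are whole numbers without normalization, although the table is named as normalized, with totals of 20990655 to 73128220 per library. Intervals on shares of counts are 95% Wilson intervals and cover counting error only. The versions of HISAT2 and featureCounts and the strand setting are not given in the sources used here, and the labels give no batch.

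Genes were named from GENCODE vM39, and 618 identifiers had no match. The 19145 genes averaging 10 or more counts per library were tested in 1 fit of the 4 groups, without covariates, with edgeR 4.0.16 (R 4.3.3; TMM, glmQLFit and glmQLFTest at their defaults). A call needed an adjusted p (Benjamini-Hochberg, over all genes tested) under 0.05 with an absolute log2 fold change over 0.5. Standard errors are of the log2 fold change, taken as its absolute value divided by the square root of the quasi-likelihood F statistic. They restate the test and are not a separate estimate of spread. Levels per kilobase use the length of the Ensembl canonical transcript. The scripts were tested on simulated data. Alternatives were DESeq2 1.42.0 (the tool of the study), its size factors, no filter on low counts, robust dispersion, the older quasi-likelihood method (identical to the default here), a fit of only the groups compared, a replicate block, a GC correction and each mouse left out. The newer quasi-likelihood method and the exclusion of both atrial-rich mice were chosen after seeing the data.

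The members, roles and marker lists were chosen with earlier results of these data known. Values in every mouse are given for the chamber genes Myl2, Myl3, Myl4, Myl7 and Sln, for Myh6, Myh7, Tnni1, Tnni3, Atp2a2, Pln and Ryr2, and for the 2 members of each remaining role with the smallest p in AngII+LY against AngII. They are also given for Xirp2, which was chosen after its values were seen.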

Additional observations from a re-analysis of the deposited data

Results flagged for a closer look

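Values were singled out where 1 of 4 mice of a group lay so far from the others that its gap to the nearest mouse exceeded Dixon's 95% critical value. Of 129 groups of values examined, 8 did so, a share close to the about 1 in 20 that chance alone marks in independent groups. The groups here share mice and correlated genes, so whether chance gave the 8 was not tested. All 8 belong to the atrial genes or their ratios, and all come from the second Ctrl mouse or the fourth AngII+LY mouse. The ratios use the same genes and mice as the counts, so the 8 are not independent. Among normalized counts, Myl4 stood out at 119455 in the second Ctrl mouse and at 118166 in the fourth AngII+LY mouse, and Myl7 at 208649 and 155866 in the same mice. Sln stood out at 80744 in the second Ctrl mouse. In the fourth AngII+LY mouse Sln, at 97524 against 699.7 to 2864 in the others, did not pass on the log scale. Among ratios per kilobase, the fourth AngII+LY mouse stood out for Myl7 to Myl2, at 84.0 percent, and for Myl4 to Myl3, at 50.9 percent, and the second Ctrl mouse for Sln to Atp2a2, at 139 percent. No ventricular gene and no other member was singled out in any group of 4.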

How the results depend on the processing

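Of 63 log2 fold changes followed under 24 alternatives, 1488 of 1512 values kept their direction, and 24 values of 9 fold changes reversed. Many of these values could hardly reverse, so the share that kept its direction is no measure of stability. The older quasi-likelihood method and robust dispersion left the fold changes as they were. Leaving out a mouse of neither group compared barely moved them. Leaving out the second Ctrl and the fourth AngII+LY mice reversed Myl4 to -0.60, Myl7 to -0.53, Sln to -0.86, Pln to -0.0023, Xirp2 to -0.066 and Nebl to -0.14 in AngII+LY against AngII, and Myh6 to 0.0072 and Sln to 0.39 in AngII against Ctrl. With 1 mouse left out at a time, the values in AngII+LY against AngII ran from -0.60 to 4.24 for Myl4, -0.53 to 3.69 for Myl7, -0.86 to 4.12 for Sln, -0.16 to 0.56 for Pln, -0.066 to 0.52 for Xirp2 and -0.14 to 0.55 for Nebl. In AngII against Ctrl they ran from -0.12 to 0.28 for Myl2, -1.48 to 0.0075 for Myh6 and -3.89 to 0.39 for Sln.

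Of members called, edgeR gave 0 in each comparison. In AngII against Ctrl, DESeq2 called 2, and the fit without a filter and the newer quasi-likelihood method 1 each. Of all genes these called 2663 of 18880, 123 of 32619 and 555 of 19145. DESeq2 called 18 in AngII+LY against AngII, beside 2082 of 18880 genes, and 6 in AngII+LY against Ctrl, beside 343. With 1 mouse left out, 0 to 1 were called in AngII against Ctrl, the 1 being Xirp2 without the first or the second AngII mouse. In these 2 fits 1725 of 19162 and 382 of 19005 genes were called. Without the fourth Ctrl mouse 0 members were called, beside 805 of 19079 genes. Members at an unadjusted p under 0.05 in AngII against Ctrl numbered 6 in DESeq2, 9 without a filter, 4 in the fit of only the groups compared, 10 without both atrial-rich mice, 1 with the GC correction and 2 to 8 with 1 mouse left out. For the test of whether the LY272015 effect differed with angiotensin II, they numbered 15 in DESeq2, 17 without a filter, 0 without both atrial-rich mice, 5 with the GC correction and 0 to 18 with 1 mouse left out, and that test could not be fitted on only the groups compared. With 1 mouse left out, they numbered 13 to 29 in AngII+LY against AngII and 9 to 33 in AngII+LY against Ctrl. The cause was not tested.

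Replicate numbers did not pair the mice, since same-numbered mice of different groups deviated together with correlations of -0.128 to 0.0897 and 2 of 14 correlated best with their own number. A replicate block gave 13 members at that p in AngII+LY against Ctrl and 2 in the test of the LY272015 difference, and it called 0. LY, with 2 mice, limits every comparison with that group.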
